A study of Homo sapiens with 8 samples.

Results

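In HCT8 cells treated with *E. coli* MVs, the promoter mark H3K4me3 and open chromatin by FAIRE were compared with each other in a single treatment, from the 2 peak lists labelled with the *E. coli* strain MC1061. These are 2 of the 8 samples of the series, of which 6 have a peak list and 2 are inputs. HCT8 is a cell line from a human ileocecal colorectal adenocarcinoma, and MVs are membrane vesicles that bacteria shed from their outer membrane. The cells had been cultured for 5 h with vesicles of *E. coli* MC1061, with vesicles of *V. cholerae* C6706, or without vesicles (mock). The mock-treated cells received buffer, as the methods state. Each treatment and assay has 1 library, so that no test between libraries was possible, and each interval below covers counting error only. The *E. coli* MV lists hold 31466 H3K4me3 peaks and 94231 FAIRE peaks, of which 31464 and 94225 lie on chromosomes 1 to 22 and X and were analysed.

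H3K4me3 is a trimethylation of histone H3 at lysine 4 that is placed at active and poised promoters, mostly over CpG islands, by the SET1 and MLL methyltransferase complexes. FAIRE recovers DNA that is not held by nucleosomes after crosslinking, and marks promoters as well as enhancers and other regulatory elements away from genes. Broad H3K4me3 domains are known from genes of cell identity, and AP-1, a dimer of JUN and FOS family proteins, is known for binding enhancers of epithelial cells.

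The level of a peak is its normalized tag count, the tags in the peak per 10000000 tags of the library, and the level of a gene adds up every peak that lies no further than 1000 bp from one of its annotated start sites. The H3K4me3 library held 10528314 tags, of which 53.9% were in peaks, and the FAIRE library 7888670 tags, of which 37.3% were in peaks. The FAIRE library stood apart from the other FAIRE libraries, in which 7.12% (mock) and 13.9% (*V. cholerae* MVs) of tags were in peaks. It also had the widest FAIRE regions, up to 23452 bp against 3857 bp in mock and 6870 bp with *V. cholerae* MVs. The part of this in the results below was not tested, and values without the 948 FAIRE peaks wider than 5000 bp are given where they differ. As a check of the cell type, 14 of 15 markers of intestinal epithelium had both marks, the lowest H3K4me3 level among them being 14.2 at CDX1. Over all protein-coding genes 62.5% had both, 15.3% had FAIRE only and 20.5% had neither. Of 12 blood cell markers only CD14 had both, while 4 had FAIRE only and 7 had neither, PTPRC, CD3E and HBB among them. Of 13 markers of other tissues, COL1A1 and RBFOX3 had both, with H3K4me3 levels of 17.1 and 8.55, and 8 had FAIRE only.

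The stretches below show the sequence of a promoter with both marks and of one with H3K4me3 only. Each gives the 200 bases before the canonical start site of a gene, from hg19 and in the direction of the gene, with CpG dinucleotides in capitals. CDKN1B encodes a CDK inhibitor and had both marks, and AGR2 encodes a protein disulfide isomerase of secretory cells and had H3K4me3 only. AGR2 had the highest level of its class among the listed genes whose upstream bases were covered by the peak and free of annotated exons.
CDKN1B (chr12:12870102-12870301, plus strand): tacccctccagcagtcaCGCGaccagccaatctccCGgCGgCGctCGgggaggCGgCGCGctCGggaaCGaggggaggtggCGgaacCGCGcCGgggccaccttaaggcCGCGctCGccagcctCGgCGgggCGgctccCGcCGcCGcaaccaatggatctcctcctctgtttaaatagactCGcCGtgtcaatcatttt
AGR2 (chr7:16844624-16844823, minus strand): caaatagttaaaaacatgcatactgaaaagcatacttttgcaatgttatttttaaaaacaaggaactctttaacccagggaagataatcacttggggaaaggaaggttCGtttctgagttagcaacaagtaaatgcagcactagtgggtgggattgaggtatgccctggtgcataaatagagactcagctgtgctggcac
The stretch of CDKN1B held 26 CpGs at a GC content of 68.5%. That of AGR2 held 1 CpG at a GC content of 40.0%. The levels of CDKN1B were 2560 for H3K4me3 and 189 for FAIRE, and that of AGR2 was 443 for H3K4me3.

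Distal FAIRE sites, more than 1000 bp from every protein-coding start site, are shown by stretches around the AP-1 letters TGACTCA, read on either strand and printed in capitals. The first 3 are among the highest distal FAIRE peaks of at most 2500 bp that share sequence with an H3K4me3 peak and hold these letters within the 300 bp around their centre, and the fourth is one of the highest such sites outside H3K4me3 peaks. All 4 are plus-strand hg19 sequence, and sites within annotated exons were passed over.
SHH site (chr7:155744489-155744589): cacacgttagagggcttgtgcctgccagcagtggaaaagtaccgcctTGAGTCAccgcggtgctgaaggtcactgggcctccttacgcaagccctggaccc
ITPK1 site (chr14:93510613-93510713): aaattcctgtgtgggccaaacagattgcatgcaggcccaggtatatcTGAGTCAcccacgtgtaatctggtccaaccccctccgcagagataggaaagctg
PPARG site (chr3:12486497-12486597): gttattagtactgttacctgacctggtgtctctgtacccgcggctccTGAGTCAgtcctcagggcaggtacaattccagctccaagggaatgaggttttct
UQCRHL site (chr1:16126745-16126845): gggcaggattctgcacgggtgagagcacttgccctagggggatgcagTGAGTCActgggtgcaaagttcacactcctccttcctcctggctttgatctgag
The sites are named by the gene with the nearest start site, which was 138572 bp away for SHH, 6144 bp for ITPK1, 19734 bp for PPARG and 6432 bp for UQCRHL. The ITPK1 site was intronic and the others were intergenic. Their FAIRE levels were 228, 203, 183 and 217 in the same order, and the H3K4me3 levels beside the first 3 were 19.9, 80.7 and 73.1.

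At the threshold of the deposited lists, nearly every gene with H3K4me3 at a start site also had a FAIRE peak at one. A gene can have several start sites, so the 2 marks may lie at different ones. Among 13153 single H3K4me3 peaks at start sites, 1243 shared no sequence with a FAIRE peak. Of 20090 protein-coding genes, 12547 (62.5%) had both marks, 361 (1.80%) had H3K4me3 only, 3073 (15.3%) had FAIRE only and 4109 (20.5%) had neither. H3K4me3 was thus present at 12908 genes (64.3%) and FAIRE at 15620 (77.8%). FAIRE accompanied 97.2% of the H3K4me3 genes (95% exact binomial interval 96.9% to 97.5%), and H3K4me3 accompanied 80.3% of the FAIRE genes (79.7% to 80.9%). In the mock libraries, 6498 genes (32.3%) had both marks and 53.5% of H3K4me3 genes had FAIRE, and with *V. cholerae* MVs the values were 10997 genes (54.7%) and 84.0%. With 1 library each and unequal shares of tags in peaks, these 3 pairs are set side by side only. The share rested on the FAIRE threshold. With FAIRE peaks at least 8-fold over input, 7920 genes had both marks and 4988 had H3K4me3 only, and without the wide FAIRE peaks 639 had H3K4me3 only.

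The 3 classes differed in level, width and base composition. Genes with both marks had a median H3K4me3 level of 439 over 2768 bp and a median FAIRE level of 126 over 1867 bp. Genes with H3K4me3 only had a median level of 55.1 over 1288 bp, and genes with FAIRE only had a median level of 30.4 over 1155 bp. Either mark alone was thus lower and narrower than where the marks met. The GC content within 1000 bp of the start site had a median of 57.9% at genes with both, 57.4% with FAIRE only, 45.2% with H3K4me3 only and 45.6% with neither, so that the classes split by FAIRE and not by H3K4me3. Many single marks lay near the limit of calling. Of the FAIRE-only genes 40.4% had fewer than 20 FAIRE tags, against 2.84% of genes with both, and of the H3K4me3-only genes 45.4% had fewer than 50 H3K4me3 tags, against 5.92%. The fewest tags in a called peak were 8 for H3K4me3 and 6 for FAIRE, and a gene without a peak may have tags below this limit.

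The missing mark was seldom close by. For 75.2% of FAIRE-only genes the canonical start site lay over 10 kb from the nearest H3K4me3 peak, with a median distance of 24913 bp. For 69.0% of H3K4me3-only genes it lay over 10 kb from the nearest FAIRE peak, with a median of 23380 bp. A FAIRE peak that also lay at the start site of a gene with H3K4me3 was found at 209 FAIRE-only genes (6.80%).

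The shapes of the marks around the start site differed. Among the genes with both marks and a canonical start site (n = 12522), H3K4me3 peaks covered the most genes, 91.9%, at 100 bp downstream, and the coverage stayed above 50% of this from 900 bp upstream to 1600 bp downstream. FAIRE peaks covered 92.2% of genes at the start site itself and stayed above 50% of this from 600 bp upstream to 800 bp downstream. In this profile over genes H3K4me3 was thus the wider and reached further into the gene, although at single genes, such as ASCL2 (7010 bp of FAIRE and 3676 bp of H3K4me3), FAIRE was the wider. Among the H3K4me3 peaks at start sites that shared sequence with FAIRE (n = 11910), FAIRE covered a median of 57.3% of the peak (quartiles 40.9% and 80.8%). Exactly 1 FAIRE peak was found at 93.1% of these 11910. The other 1243 H3K4me3 peaks at start sites had none. At FAIRE-only genes the FAIRE coverage reached 55.1% of genes, at 100 bp downstream, and at H3K4me3-only genes the H3K4me3 coverage reached 65.5%, at 200 bp downstream.

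Where both marks were present, their levels were only loosely related. Across the 12547 genes with both marks, Spearman's rank correlation between the H3K4me3 and FAIRE levels was 0.30. These genes share 2 libraries, and some share promoters, since they fall into 11688 distinct sets of peaks, so the value is a description. It was 0.44 between the width of H3K4me3 and the FAIRE level, and 0.46 between tags per 1000 bp of called peak. In mock the same rank correlation of levels was 0.05 and with *V. cholerae* MVs it was 0.41. The genes were then split into 4 equal groups by H3K4me3 and, separately, into 4 by FAIRE. Of the genes in the highest H3K4me3 group 36.6% were also in the highest FAIRE group, and of those in the lowest H3K4me3 group 15.9% were. The median FAIRE level over the 4 H3K4me3 groups, from lowest to highest, was 90.0, 117, 133 and 165.

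Among genes with both marks, GC content was related to FAIRE and hardly to H3K4me3. The rank correlation of GC content was 0.51 with FAIRE and -0.07 with H3K4me3 (n = 12522). Over 4 groups of genes from the lowest to the highest GC content, the median FAIRE level was 73.5, 113, 150 and 208, and the median H3K4me3 level was 468, 450, 430 and 409. FAIRE thus went up over the groups while H3K4me3 went slightly down. Within these GC groups the rank correlation between the 2 marks was 0.43, 0.37, 0.35 and 0.39, above the 0.30 over all genes in each of them. Over all peaks, distal ones included, GC content was related to both marks, with a rank correlation of 0.40 with H3K4me3 (n = 31464) and 0.37 with FAIRE (n = 94225).

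The genes that the study examined by realtime PCR or showed as examples all had both marks (15 of 15, where 62.5% of all genes had). CDKN1B had the highest H3K4me3 of them, 2560 over 15421 bp, and the cyclin D1 gene CCND1 the highest FAIRE, 420 beside an H3K4me3 level of 1116. RND3, an atypical small GTPase that loosens the actin cytoskeleton, had 1244 for H3K4me3 and 171 for FAIRE, and SOCS2, a suppressor of cytokine signalling, had 1230 and 311. The vitamin D receptor gene VDR (538 and 325) and the AP-1 gene JUN (479 and 344) were near the median of H3K4me3 and well above that of FAIRE. At the other end, LTB, a TNF family cytokine, had 64.6 and 88.7. ALDH1A3, a retinaldehyde dehydrogenase, had 84.5 and 72.2, and SKIL, a repressor of SMAD signalling, had 123 and 110. These 3 had H3K4me3 far below the median of genes with both marks, and FAIRE below its median.

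The 14 intestinal epithelial genes with both marks had medians of 471 for H3K4me3 and 198 for FAIRE, beside 439 and 126 over all genes with both. Their H3K4me3 levels ranged widely, and LGALS4 (123), CLDN3 (105) and VIL1 (225) were below the median. The homeobox gene CDX2, which specifies intestine, had 1448 over 11714 bp for H3K4me3 and 299 for FAIRE, whereas its relative CDX1 had 14.2 and 74.8. The keratin gene KRT8 had 1334 and 629, the highest FAIRE of the list, and KRT20, a keratin of differentiated enterocytes, had neither mark. Of 22 junction genes 21 had both, where 62.5% of all genes had, with medians of 507 and 198. JUP, which encodes plakoglobin, had 443 and 568, and CTNND1, which encodes p120-catenin, had 1182 and 127, so that the order of the 2 genes was opposite in the 2 marks. The pore-forming claudin gene CLDN2 had FAIRE only, at 38.0.

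Of 17 crypt and Wnt target genes 14 had both marks, where 62.5% of all genes had. Their medians were 319 for H3K4me3, below the 439 of all genes with both, and 214 for FAIRE, above the 126. RNF43, a ubiquitin ligase that removes Wnt receptors, had H3K4me3 of 1369 over 24346 bp in 3 peaks and FAIRE of 190. AXIN2, a negative feedback regulator of Wnt signalling, had 1094 and 382, and the stem cell factor gene ASCL2 had 496 and 399. SMOC2 (43.1) and PROM1 (31.7) had FAIRE only, and OLFM4 had neither.

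Among mucin and secretory genes both marks were present at 7 of 18 (38.9%), where 62.5% of all genes had both, with a median H3K4me3 of only 29.4 beside a FAIRE of 90.0. FAIRE alone was found at 8 genes, against a background of 15.3%, among them the mucin genes MUC5B (478), MUC2 (235), MUC4 (181) and MUC5AC (134), MUC17 (11.4), the trefoil factor gene TFF2 (40.6), ATOH1 (22.8), which specifies secretory cells, and CHGA (24.1), a marker of enteroendocrine cells. The FAIRE regions of MUC5B added up to 16434 bp in 4 peaks, with no FAIRE peak there in mock and a level of 51.3 with *V. cholerae* MVs. SPDEF, a transcription factor of goblet cells, was close to this class, with H3K4me3 of 10.4 (11 tags) and FAIRE of 347. The reverse was found at AGR2 (443) and MUC13 (114), with H3K4me3 only.

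Immediate early genes, which include the AP-1 subunits, had both marks at 25 of 26, where 62.5% of all genes had. Their medians were 460 for H3K4me3 and 229 for FAIRE. The FAIRE median was above that of all genes with both marks (126), with a GC content of 64.3% against 57.9%. IER2, a nuclear immediate early protein, had the highest levels of the list, 1355 and 578, from an H3K4me3 peak that STX10 shares. The MAP kinase phosphatase gene DUSP4 had 1242 and 328, and KLF10, a zinc finger repressor, had 684 and 473. The AP-1 genes FOS (474 and 193), JUNB (621 and 307) and FOSL2 (768 and 412) had both as well. EGR4 had FAIRE only, at 58.3.

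Of 30 NF-kB and TNF target genes, 24 (80.0%) had both marks, where 62.5% of all genes had, with medians of 350 and 170. SOD2, a mitochondrial superoxide dismutase, had the highest H3K4me3 of them (1898, with FAIRE of 390), and ZC3H12A, an RNase that degrades cytokine mRNAs, the highest FAIRE (460, with H3K4me3 of 729). IRF1, an interferon regulatory transcription factor, had 708 and 458. The 6 without both marks were cytokine genes, but other cytokine genes of the list had both. These were CXCL1 (73.1 and 29.1), CXCL2 (181 and 54.5), CXCL3 (322 and 44.4) and LTB (64.6 and 88.7). The chemokine genes CXCL8 (76.0) and CCL20 (9.5) and IL1A (15.2) had H3K4me3 only, IL6 (48.2) and TNF (15.2) had FAIRE only, and IL1B had neither. The GC content around the start site was 36.3% at CXCL8 and 42.0% at IL1A, against 50.8% at IL6 and 54.9% at TNF.

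Among genes that sense bacterial products, the adaptor and kinase genes had both marks, with MYD88, the shared adaptor of Toll-like receptors, at 787 and 404 and RIPK2, the kinase below NOD1 and NOD2, at 596 and 72.3. Among the Toll-like receptors, TLR5, which binds flagellin, had 90.2 and 185. TLR3 had H3K4me3 only (312), TLR2 (11.4) and TLR9 (16.5) had FAIRE only, and TLR1, TLR4 and TLR6 had neither, TLR4 being the receptor of lipopolysaccharide. The receptor genes NOD1 (332 and 64.6) and NOD2 (9.5 and 115) had both marks. In all, both were found at 11 of the 18 listed genes (61.1%), close to the 62.5% of all genes.

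Of 18 interferon genes 4 had H3K4me3 only, where 1.80% of all genes had. These were IFIT1 (134), IFIT2 (121) and IFIT3 (27.5), which bind viral RNA, and OAS1 (163), an oligoadenylate synthetase, whereas OAS2 had FAIRE only (22.8). The remaining 13 (72.2%) had both, where 62.5% of all genes had, with medians of 131 and 96.3, from ISG15, a ubiquitin-like modifier (772 and 470), to MX2 (9.5 and 103).

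Housekeeping genes combined high H3K4me3 with modest FAIRE. Of 76 cytosolic ribosomal protein genes 75 had both, where 62.5% of all genes had. Their median H3K4me3 was 801 and their median FAIRE 101. All 31 proteasome genes had both, with medians of 649 and 76.1. H3K4me3 was thus above and FAIRE below the medians of all genes with both marks, at a median GC content of 54.0% and 51.7%. RPL21 had 1520 for H3K4me3 with a FAIRE of 73.5. PSMB1, a proteasome beta subunit, had 1261 with 131, slightly above the FAIRE median of 126 over all genes with both marks. RPL18 had the highest FAIRE of the ribosomal list, with 1092 and 494, and other members such as RPL36 (433.5) and RPL28 (347.3) were also above that median. The 32 replication genes all had both marks, with medians of 482 and 133, PCNA, the sliding clamp of DNA polymerase, at 1124 and 472. All 19 genes listed under H3K4 methylation, KDM2A and KDM2B included, had both as well, with medians of 624 and 147. Among them the highest FAIRE was at CXXC1 (524, with H3K4me3 of 930), the CpG-binding subunit of the SET1 complexes, and the highest H3K4me3 at KDM2A (1274, with FAIRE of 361), a demethylase of H3K36 that binds CpG islands.

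The HOX genes, which pattern the body axis, showed both extremes. The widest H3K4me3 peak of the library lay over the HOXB cluster at chr17:46643301-46725714, with a level of 9731 over 82413 bp. It was the only H3K4me3 peak of 6 genes, HOXB4 to HOXB9, and part of the value of HOXB3 (9779). FAIRE did not form such a domain there but 20 separate peaks with levels between 13.9 and 268, which together covered 48.3% of it. The FAIRE levels of these genes went from 105 at HOXB5 and 136 at HOXB4, around the median of 126, over HOXB6 (196), HOXB8 (217) and HOXB9 (268) to HOXB3 (335) and HOXB7 (347). In *V. cholerae* MV-treated cells the H3K4me3 level of HOXB4, HOXB5, HOXB6 and HOXB7 was 9816, and in mock it was 2243, 4547, 2304 and 3534 in the same order. The widest H3K4me3 peak was 79873 bp with *V. cholerae* MVs and 28584 bp in mock, so the mock values come from shorter peaks. The mock library was also smaller, with 3463875 tags against 10528314. The parts of peak extent and depth in these levels were not tested. Of the 39 HOX genes, 10 had FAIRE only, against a background of 15.3% of all genes, from HOXD10 (22.8) to HOXD12 (90.0), and HOXA2 and HOXD9 had neither.

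The genes with H3K4me3 only and the highest levels included 2 without a usual symbol, ENSG00000262526 and ENSG00000285629, whose H3K4me3 peaks belong as well to PHF23 and GABARAP and to RPL22. KIAA1217, a gene of an actin-associated adaptor, had 894 from 4 peaks, SEMA3A, a secreted axon guidance cue, had 830 over 6305 bp, and POLR2K, a small subunit of RNA polymerases, had 799. SEMA3A had 907 in mock and 640 with *V. cholerae* MVs, with no FAIRE peak in any of the 3 FAIRE libraries. KIAA1217 by contrast had FAIRE in mock (28.3) and with *V. cholerae* MVs (53.9), though not with *E. coli* MVs.

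The genes with FAIRE only and the highest levels had several FAIRE peaks each, whose sizes are added up here. CRIP2, a LIM domain protein gene, had 1271 over 25228 bp in 2 peaks, and TNNI2, which encodes the troponin I of fast muscle, had 776 over 16787 bp in 2 peaks. The kinase gene AATK (553), the potassium channel gene KCNT1 (535 over 15 peaks) and HRC, which encodes a calcium-binding protein of muscle (530), followed. The widest FAIRE peak at CRIP2, of 16934 bp, shared sequence with 3 H3K4me3 peaks, with a summed level of 437, and reached the start sites of CRIP1 and TEDC1, so that H3K4me3 was inside the same open region but not within 1 kb of a start site of CRIP2. Most of the value of TNNI2 likewise came from 1 FAIRE peak, of 15178 bp with a level of 738, that also lay at a start site of SYT8. That peak shared sequence with 3 H3K4me3 peaks, with a summed level of 166. The genes with both marks and the highest FAIRE were PLEC, which encodes the cytolinker plectin (2232), SEPTIN9, a cytoskeletal GTPase (1776), LAMA5, a laminin chain of basement membranes (1771), the retinoid receptor gene RXRA (1566) and BAIAP2, an actin regulator (1503). Their FAIRE peaks added up to between 33818 bp and 45682 bp. In mock their FAIRE levels were between 20.1 and 104.4, and with *V. cholerae* MVs between 43.9 and 347.

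Gene families were added after the data were seen, and 62.5% of all genes had both marks, 15.3% FAIRE only and 20.5% neither. Of 415 olfactory receptor genes 1 had both, 1 had H3K4me3 only, 21 had FAIRE only and 392 had neither. Of 53 clustered protocadherin genes, which give neurons their surface identity, 2 had both and 17 had FAIRE only. Among 65 replication-dependent histone genes 45 had both, with a median FAIRE of 41.2 over the members with FAIRE, and 6 had H3K4me3 only. Of 515 genes with a ZNF symbol 377 had both, and of 373 solute carrier genes 215 had both and 83 had FAIRE only. By chromosome, the share of H3K4me3 genes with FAIRE was highest on chromosome 19 (99.7% of 948) and lowest on the X chromosome (91.6% of 383).

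At the level of single peaks, 18784 of 31464 H3K4me3 peaks (59.7%, interval 59.2% to 60.2%) shared at least 1 bp with a FAIRE peak, and 19428 of 94225 FAIRE peaks (20.6%, interval 20.4% to 20.9%) shared at least 1 bp with an H3K4me3 peak. FAIRE peaks held 45.1% of the bases in H3K4me3 peaks and covered 3.23% of the genome. In the mock libraries the shares of peaks were 21.9% and 8.20%, and with *V. cholerae* MVs 52.6% and 21.3%. The share with FAIRE went up with the level of H3K4me3. The H3K4me3 peaks were split into 10 equal groups by level. In the lowest group 23.4% had FAIRE (interval 21.9% to 24.9%), and in the 3 highest groups 97.0%, 98.5% and 99.4% had it. The step was between the sixth group (56.7%) and the eighth, where the share of peaks at start sites went from 24.5% to 91.2% and the GC content from 46.3% to 56.8%.

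The width of the H3K4me3 peak gave the same picture. Of H3K4me3 peaks of 500 bp, the smallest size, 27.8% had FAIRE, with a median level of 40.6. Of those wider than 4000 bp 96.1% had FAIRE, with a median level of 189 from an average of 1.36 FAIRE peaks. Over the 18784 H3K4me3 peaks with FAIRE, the rank correlation was 0.47 between the levels and 0.49 between H3K4me3 width and FAIRE level. Much of this lay between promoters and distal sites, since the rank correlation was 0.32 within peaks at start sites (n = 11910) and 0.23 within distal peaks (n = 6874). Level and width themselves were tied within each list, with a rank correlation of 0.95 for H3K4me3 and 0.89 for FAIRE.

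Most FAIRE peaks were distal. Of 94225 FAIRE peaks 69333 (73.6%) lay more than 1000 bp from every protein-coding start site, and 62322 of these (89.9%) were outside H3K4me3 peaks. Their median level was 16.5, against 46.9 for FAIRE peaks at start sites, a ratio of 0.352, where mock had 0.863 and *V. cholerae* MVs 0.593. FAIRE peaks at start sites were of 2 kinds. The 12417 that shared an H3K4me3 peak had a median level of 96.3 and 65.6 CpGs per 1000 bp, and the 12475 outside H3K4me3 peaks had a median level of 20.3 and 26.9 CpGs per 1000 bp, close to distal sites in level. By the position of the centre, 46.6% of distal FAIRE peaks were intronic, 9.17% exonic and 44.2% intergenic, and 8.54% lay within 1000 bp of a start site of another annotated gene that is not protein-coding.

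Distal sites with more FAIRE more often had H3K4me3. The share with H3K4me3 was 1.44% in the lowest of 10 equal groups of distal FAIRE peaks by level and 43.4% (interval 42.2% to 44.6%) in the highest. The median region size was 500 bp in the lowest group and 2093 bp in the highest, and a wider region meets another peak more readily. The part of width in the rise was not tested. The share with H3K4me3 changed little with distance, from 9.91% up to 5000 bp from a start site and 10.3% from there to 20000 bp, to 10.5% up to 100000 bp and 8.90% beyond. Distal H3K4me3 peaks with FAIRE (6874) had a median H3K4me3 level of 27.5 and a GC content of 51.9%, and those without FAIRE (11437) had 16.1 and 40.3%.

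The 10 highest distal FAIRE peaks fell into 2 groups. The peaks at chr21:9826937-9827837 (832), chr20:26188770-26190792 (800) and in an intron of PMF1 at chr1:156186076-156186967 (660) had no H3K4me3 and the most input tags, 152, 133 and 91.4, at folds over input of 4.33, 4.74 and 5.70. The other 7 were between 8153 bp and 11143 bp wide and all shared H3K4me3. The first of these lay at chr12:52536534-52547677, 31856 bp from a start site of the keratin gene KRT80, one of the genes examined by the study, with a FAIRE level of 724 and H3K4me3 of 79.7. KRT80 itself had 355 for FAIRE and 155 for H3K4me3 at its start sites. Others lay near the homeobox gene ONECUT3 (663, with H3K4me3 of 556), near GPR132 (619 and 408), and in introns of the membrane-bending gene BIN1 (548 and 69.2) and of SH3GL1 (541 and 150).

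Most wide FAIRE peaks shared sequence with an H3K4me3 peak, where 20.6% of all FAIRE peaks did. A wider region meets another peak by 1 bp more readily, and the part of width in this share was not tested. Of the 948 FAIRE peaks wider than 5000 bp (1.01% of FAIRE peaks), 74.1% shared H3K4me3 (interval 71.1% to 76.8%), and their median GC content was 62.3%. The widest, of 23452 bp at PLEC, held 3 H3K4me3 peaks. The next were at LAMA5 (22061 bp, 5 H3K4me3 peaks), BAIAP2 (18345 bp), RXRA (17285 bp) and PIM3, a serine/threonine kinase gene (17187 bp).

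Promoter-type and distal sites also differed in the letters they held. In the 300 bp around the peak centre, both strands were searched for 15 short motifs, each spelled out below. The AP-1 letters TGACTCA were found in 16.8% of 7011 distal FAIRE sites that share H3K4me3, 11.6% of 11437 distal H3K4me3 peaks without FAIRE, 7.18% of 62322 distal FAIRE sites outside H3K4me3, 3.35% of 12417 start-site FAIRE peaks that share H3K4me3, and 4.59% of all 300-bp windows of the genome. They were thus most frequent where the 2 marks met away from protein-coding start sites. Of these 7011 sites, 1266 lay within 1000 bp of a start site of another annotated gene. Since the sets differ in base composition, the shares were also taken over windows of 50% to 60% GC alone, a choice made after the data were seen. In the same order they were then 17.5%, 9.95%, 7.40%, 6.27% and 4.87%.

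The letters of promoters were most frequent in the start-site set. The GC box, GGGCGGG, was found in 40.8% of start-site FAIRE peaks that share H3K4me3, 14.4% of distal FAIRE sites that share H3K4me3, 7.19% of distal FAIRE sites outside H3K4me3 and 1.53% of genome windows, or in 15.4%, 8.56%, 4.81% and 3.52% of windows of 50% to 60% GC. The ETS letters, CCGGAAG, were found in 11.8%, 4.04%, 2.54% and 0.707%, or in 10.1%, 2.86%, 2.23% and 1.64% at that GC content. Gaps of any bases were allowed in the CTCF letters, which read CCA, any 2, AG, any 2 and GGC. They were found in 3.53% of distal FAIRE sites outside H3K4me3 and 0.763% of genome windows, or 3.27% and 1.68% at that GC content. The NF-kB letters, GGG and TTTCC with any 2 bases between them, differed less, with 2.38% of distal FAIRE sites that share H3K4me3 and 0.938% of all genome windows. They were in 2.29% of distal FAIRE sites that share H3K4me3, 2.12% of those outside and 1.46% of genome windows at that GC content.

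For the other motifs, distal FAIRE sites that share H3K4me3 were set beside genome windows, over all windows and then over those of 50% to 60% GC. For HNF4, a nuclear receptor of enterocytes and hepatocytes, the letters CAAAGTC were found in 5.68% against 4.59%, and in 5.78% against 3.83% at that GC content. For the forkhead factors FOXA the letters TGTTTAC were found in 5.16% against 4.67%, and in 4.90% against 2.44%. For TEAD factors, which act with YAP, the letters CATTCCA were found in 6.33% against 5.55%, and in 6.56% against 5.00%. RUNX factors gave 6.43% against 5.75% for the letters TGTGGTT, and 6.56% against 4.33%. The E-box CACGTG was found in 6.30% against 2.74%, and in 6.18% against 5.01%. For these 5 the shares were higher than in the genome on both scales.

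For the other letters the comparison depended on the windows used. For the intestinal factor CDX the letters TTTATGG were found in 3.81% against 5.96% of all windows, and in 3.78% against 2.09% of those of 50% to 60% GC. TCF/LEF factors, which act with beta-catenin, gave 4.55% against 5.00% for the letters ATCAAAG, and 4.07% against 2.28%. The CCAAT box, searched as CCAATCA, was found in 3.11% against 3.28%, and in 3.09% against 2.44%. For GATA factors the letters AGATAAG were in nearly equal shares of all windows, 4.46% against 4.35%, and in 4.55% against 2.23%. The NRF1 letters GCATGCG turned the other way, with 1.55% against 0.829% of all windows and 1.43% against 2.01% at that GC content. A match of letters is a description and not a site of binding.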

How the data were processed

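HCT8 cells were assayed by H3K4me3 ChIP sequencing and FAIRE sequencing, and the 6 deposited peak lists were used, with 1 library for each assay in each treatment. The authors aligned reads to hg19 (GRCh37) and called peaks in each library against an input with HOMER. HOMER 4.7.2, Bowtie 1.1.2 and SAMtools 1.3.1 stand in the processing notes of the submitters. The methods of the paper name Bowtie 2, and MACS beside HOMER. Per the file headers, the histone mode was run with a threshold of 4-fold over input, 0.0001 as the Poisson p, and at least 1000 bp between peaks. Each deposited list gives a normalized tag count, a signal per 10000000 tags. The authors' tag count of a peak and input count, their fold, which is the ratio to input, and their p-value over input are deposited too, and of these the input tags and fold served for description and thresholds. Tag numbers are whole tags recovered from the normalized tag count and the library total, with a largest distance from a whole number of 0.0526 (H3K4me3) and 0.0394 (FAIRE).

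From these values, peaks were assigned to 20090 protein-coding genes (146295 start sites, GENCODE release 44 on GRCh37) within 1000 bp of a start site. A peak near several genes counts for each. Sharing means at least 1 bp. In all, 8 peaks on chromosome Y or the mitochondrial genome were left out. GC content was read from the GRCh37 reference, with pysam 0.24.0, and rank correlations were computed with scipy 1.17.1 under Python 3.11.15. The overlap, class, distance, correlation and motif steps were tested on simulated data. No test between libraries was run. Intervals are exact 95% binomial intervals for counting error only, and PCR copies make the true error larger.

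The members, the 16 gene lists and the rules were chosen with earlier results of these data known. Named genes are those the paper names, of each list at most the 2 highest for each mark, and over all genes the 5 highest of each class. For epithelium, junction, AP-1 and NF-kB lists, members with 1 mark among their 2 highest were added. Distal sites are the 10 highest. All other named list members, the gene families and the sites and promoters whose sequence is shown were chosen after their values were seen. Alternatives changed the window, the peak thresholds, the overlap, the value of a gene or peak and the start sites. Some genes and sequences are not reported here.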

Additional observations from a re-analysis of the deposited data

Results flagged for a closer look

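The FAIRE library of *E. coli* MV-treated cells had 1 mitochondrial peak outside the analysed chromosomes, with a normalized tag count of 19632 (15487 tags, 0.196% of the library). The mock and *V. cholerae* MV libraries had 3 mitochondrial peaks each, with summed counts of 838.7 and 4696. It stands out as a signal in data that no comparison above uses, above its level in the mock library. No mitochondrial peak was called in the 3 H3K4me3 libraries.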

How the results depend on the processing

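Of 61 alternative values, 37 stayed within the limits set for them and 24 moved. For counts the limit was a ratio of 1.5 to the main value in either direction. For rank correlations it was the 95% interval of the main value, with genes or peaks taken as independent, or the same rounded value. No rank correlation changed sign, and a count could only stay or move. The stricter FAIRE threshold of 8-fold over input changed the most. It left 7920 genes with both marks, 4988 with H3K4me3 only and 1223 with FAIRE only, a rank correlation of 0.37 over genes and 0.43 over peaks, 8000 FAIRE peaks and 7992 H3K4me3 peaks that share sequence, and 18383 distal FAIRE peaks, 16624 of them outside H3K4me3. With the upper 50% of FAIRE peaks by level, 581 genes had H3K4me3 only and 2002 FAIRE only, the rank correlation over peaks was 0.42, and 30702 FAIRE peaks were distal, 24791 of them outside H3K4me3. Without FAIRE peaks wider than 5000 bp, an alternative chosen after seeing the data, 639 genes had H3K4me3 only, and the rank correlation was 0.31 over genes and 0.52 over peaks. The rank correlation over genes was 0.32 with the highest peak of a gene and 0.46 per 1000 bp. The rank correlation over peaks was 0.56 per 1000 bp, 0.45 with H3K4me3 peaks at least 8-fold over input, 0.60 where at least 50% of the FAIRE peak was shared, and 0.57 with centres within 500 bp, which 12626 FAIRE peaks met. No paired analysis was possible because no assay has a second library of any treatment, and for the same reason no replicate could be left out. Depth sets the fewest tags in a called peak, 8 for H3K4me3 and 6 for FAIRE, and a gene without a peak may have tags below this. Its effect on the classes was not tested.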
